A study of Mus musculus with 4 samples.

Results

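The 6 selenoprotein genes followed here were the glutathione peroxidase genes Gpx1 and Gpx4, the thioredoxin reductase genes Txnrd1 and Txnrd3, the methionine sulfoxide reductase gene Msrb1, and Selenop, which encodes the secreted selenium carrier selenoprotein P. They were chosen by name, and they are read by 7 of 22534 probes, with 2 probes for Msrb1 and 1 for each of the others. All 7 probes had a value on all 4 arrays, which made these genes 6 of the 4754 that could be tested. The samples were cultures of NIH 3T3, a mouse fibroblast line. The knockdown cells carried the plasmid pU6-m3 with an siRNA sequence against Selt, the gene of selenoprotein T now named Selenot. The construct siSelT-1 covers nucleotides 205 to 224 of that mRNA and siSelT-5 covers nucleotides 971 to 989. Control cells carried the pU6-m3 vector alone. Vector and knockdown cells alike were selected with 150 µg/ml hygromycin and grown in DMEM with 10% serum and 100 nM sodium selenite, so selenite was added to every culture. Whether each line was a clone or a mixed population is not given in the labels. Each construct was set against the vector on 2 two-colour arrays, with knockdown RNA in Cy5 and vector RNA in Cy3, and the 2 arrays of a construct used different cultures.

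Selenoproteins contain selenocysteine, an amino acid built on its own tRNA and inserted at UGA codons that would otherwise end translation. Insertion needs a hairpin element in the mRNA and proteins that bind it. When selenium is scarce, some selenoprotein mRNAs, with Gpx1 the classic case, are lost in part through nonsense-mediated decay, while others such as Gpx4 and Txnrd1 are largely kept. This order of priority is known as the selenoprotein hierarchy. Here Gpx1, Selenop and Msrb1 are taken as the selenium-sensitive transcripts and Gpx4 and Txnrd1 as the resistant ones, and Txnrd3 belongs to neither class.

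Each value is the deposited log ratio of knockdown over vector, read as log2, so that 0 means equal RNA and 1 a doubling. The base and the direction of the ratio are not stated, and the direction was read from the order in the titles and from the dye labels. Folds rest on that reading, and a reversed ratio would turn every sign. The arrays held between 7689 and 20268 values, with fewer on the siSelT-1 arrays than on the siSelT-5 arrays. The probes shared by all arrays had medians of 0.19, 0.09, 0.43 and 0.36 for siSelT-1 replicates 1 and 2 and siSelT-5 replicates 1 and 2. Values called centred have these medians subtracted. Over every value of an array, shared or not, the medians were 0.18, 0.064, -0.22 and -0.19, so on the siSelT-5 arrays the shared probes lay above 0 and the whole array below it. Centring on all values therefore moves siSelT-5 the other way, and its results are given where they change a call made as deposited. Of 12 fibroblast markers, 8 had a value on all arrays, among them Vim, Col3a1 and Fn1, beside 7038 of 22534 probes. All 12 had a value on at least 1 array, but siSelT-5 replicate 1 held values for 20268 of the 22534 probes. Ratios give no level, and having a value is no measure of expression, so the labelled cell type could not be checked. No epithelial or hepatocyte marker had a value on all arrays, 0 of 4 in each list, and the endothelial and immune lists had 1 of 3 each. Selenot had no named probe, and its level was not analysed here.

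RefSeq promoter windows of the 6 genes in build GRCm38.p6, from 250 bases before to 50 bases after each annotated start, were searched on both strands for 3 motifs. These were the GC box GGGCGG, bound by Sp1-type factors, the antioxidant response element core TGACNNNGC, bound by NRF2, and the TATA box TATAAA. All 6 genes had a window, 13 in total, and no match overlapped another motif. Among the 32851 windows of that length in RefSeq, 35.7% held the GC box, 12.4% the antioxidant response element core and 13.6% the TATA box. The 4 windows below are shown because they set Selenop, the gene with the lowest ratios, beside the other 2 selenium-sensitive genes, and because the Txnrd1 window is the only one of the 13 with the antioxidant response element core. They are Gpx1 at chr9:108338830-108339129, Msrb1 at chr17:24736343-24736642, the third annotated start of Selenop at chr15:3270727-3271026, and the second annotated start of Txnrd1 at chr10:82858956-82859255, all on the plus strand and written 5′ to 3′ with motif matches in capitals.
Gpx1: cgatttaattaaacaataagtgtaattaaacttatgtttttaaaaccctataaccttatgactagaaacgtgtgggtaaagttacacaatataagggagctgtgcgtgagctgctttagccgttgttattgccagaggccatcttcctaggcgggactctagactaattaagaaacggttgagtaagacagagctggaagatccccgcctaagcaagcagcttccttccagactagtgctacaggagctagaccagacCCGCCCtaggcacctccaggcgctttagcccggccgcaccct
Msrb1: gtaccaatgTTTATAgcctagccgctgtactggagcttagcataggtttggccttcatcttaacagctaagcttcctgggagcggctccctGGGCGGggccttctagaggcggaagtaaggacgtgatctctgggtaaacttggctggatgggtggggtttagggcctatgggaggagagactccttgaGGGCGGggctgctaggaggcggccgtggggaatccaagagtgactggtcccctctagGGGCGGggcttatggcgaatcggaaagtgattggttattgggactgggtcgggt
Selenop: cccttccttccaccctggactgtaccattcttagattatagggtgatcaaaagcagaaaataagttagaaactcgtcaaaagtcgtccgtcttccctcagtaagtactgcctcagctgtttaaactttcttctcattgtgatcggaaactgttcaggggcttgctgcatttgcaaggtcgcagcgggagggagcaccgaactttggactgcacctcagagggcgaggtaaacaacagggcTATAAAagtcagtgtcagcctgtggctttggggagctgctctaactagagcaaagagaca
Txnrd1: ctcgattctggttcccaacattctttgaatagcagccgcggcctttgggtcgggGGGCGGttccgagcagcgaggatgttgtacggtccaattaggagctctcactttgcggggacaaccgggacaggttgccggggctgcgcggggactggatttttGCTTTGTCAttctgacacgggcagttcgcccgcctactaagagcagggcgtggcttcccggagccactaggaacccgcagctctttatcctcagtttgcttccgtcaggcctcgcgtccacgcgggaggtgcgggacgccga
The Gpx1 window held 1 GC box, 9 bases after the start and on the minus strand. In Msrb1 there were 3 GC boxes, at -159, -61 and -4 from the start, and a TATA box on the minus strand at -241. The Selenop window held a TATA box at -10 and no GC box, and its other 2 windows held none of the 3 motifs. In Txnrd1 the GC box lay at -196 and the antioxidant response element core at -92 on the minus strand, and its other 2 windows held no match. The 4 windows of Gpx4 held 0, 2, 2 and 1 GC boxes, some of them shared between overlapping windows, and the single window of Txnrd3 held no match. These matches are letters in a window and no measure of binding.

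Over both constructs, 4 of the 6 genes were higher than vector (Gpx4, Msrb1, Gpx1 and Txnrd3), Selenop was lower and Txnrd1 did not pass the test. The test was limma's, with Benjamini-Hochberg adjustment over 4754 genes and a threshold of 0.05. Of all genes tested, 45.7% were called higher and 8.04% lower, so 4 of 6 called higher is no result particular to these genes, while a lower call was less common among all genes. After centring, 20.5% of genes were called higher and 21.9% lower, and the calls were Gpx4 higher and Selenop lower. Gpx4 and Selenop were thus the genes called on both scales. Centring on all values called 5 of the 6 genes higher, Txnrd1 among them, and Selenop lower, where 2717 of 4754 genes were called.

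**Figure D1:**
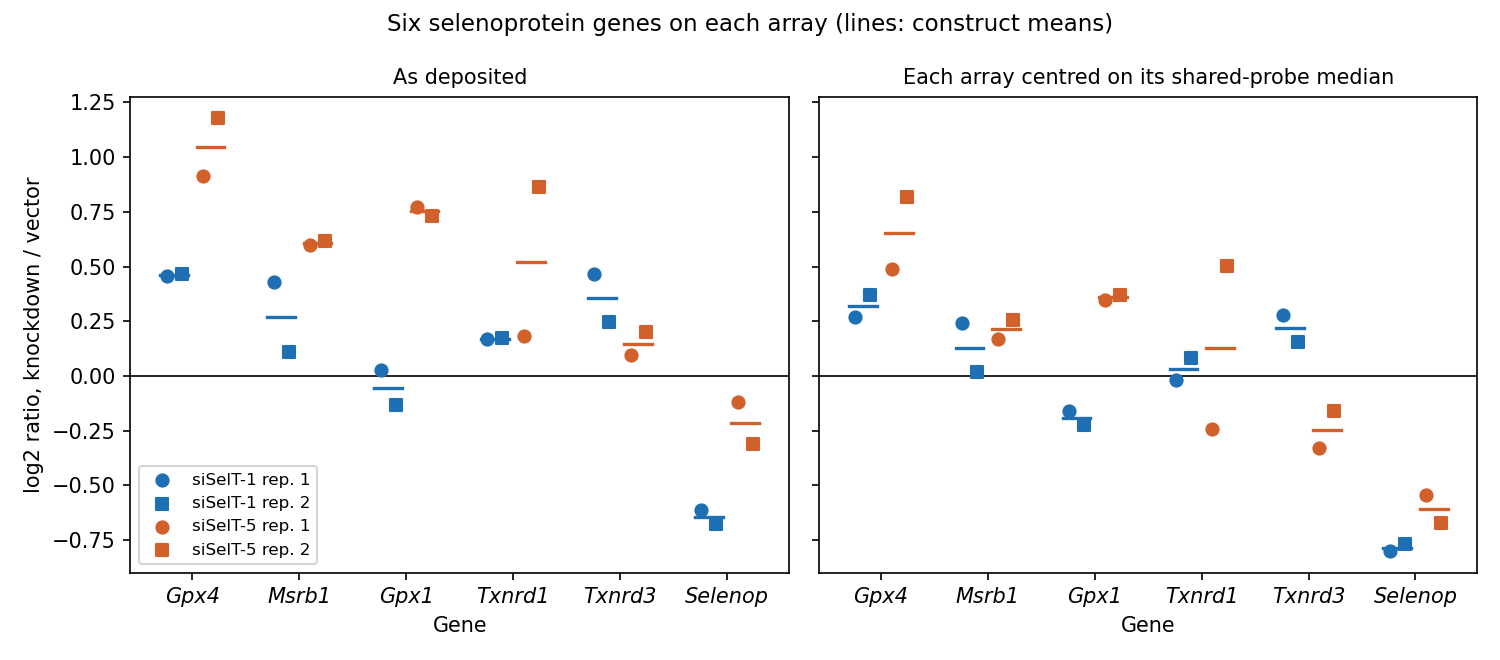
Log2 ratio of knockdown over vector (vertical axis) for the 6 genes (horizontal axis) on each of the 4 arrays, as deposited on the left and centred on the right, with lines at the construct means. Gpx4 lies above 0 and Selenop below 0 on every array in both panels, and the siSelT-1 and siSelT-5 points of Gpx1 are apart.

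Gpx4 reduces lipid hydroperoxides within membranes and is the peroxidase that holds off ferroptosis. Its log2 ratios (Entrez Gene 625249) were 0.46 and 0.46 with siSelT-1 and 0.92 and 1.18 with siSelT-5. All 4 were above 0, and both siSelT-5 arrays were above both siSelT-1 arrays. The shared-probe medians were higher on the siSelT-5 arrays too. The share of all genes with an order by construct, here and for the genes below, was not counted. The mean was 0.75 ± 0.35 (SD, n = 4), a ratio of 1.69-fold, with a limma standard error of 0.084 and an adjusted p of 0.00204. Centred, the mean was 0.49 and the adjusted p 0.0119. The siSelT-5 mean of 1.05, or 2.07-fold, passed with an adjusted p of 0.00234, and the siSelT-1 mean of 0.46 missed with 0.0574. With array weights siSelT-1 alone passed (adjusted p 0.00733), where 1920 of 4754 genes were called. Centred on shared probes, it missed (adjusted p 0.143). On a scale from the lowest to the highest of all genes, Gpx4 had a percentile of 78.8 and 88.4 with siSelT-1, and of 85.5 and 93.9 with siSelT-5. Over 14 alternative settings the adjusted p for both constructs ran from 0.000111 to 0.0528, and it missed the threshold without siSelT-1 replicate 1, where the mean was 0.76.

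Gpx1, the abundant cytosolic peroxidase that removes hydrogen peroxide, split by construct. Its ratios (Entrez Gene 14775) were 0.026 and -0.13 with siSelT-1 and 0.77 and 0.73 with siSelT-5. The siSelT-1 arrays lay on either side of 0, and both siSelT-5 arrays were clearly above it. With siSelT-5 the mean was 0.75, a ratio of 1.69-fold, with an adjusted p of 0.00383 as deposited and a centred mean of 0.36 with an adjusted p of 0.0365. With siSelT-1 the mean was -0.054, with an adjusted p of 0.766. The mean over both constructs, 0.35 ± 0.47 (SD, n = 4), passed as deposited with an adjusted p of 0.0139. That p takes its error from gaps between arrays of the same construct, so the split by construct is not in it. With a single mean over the 4 arrays the adjusted p was 0.156. The centred mean was 0.083 with an adjusted p of 0.357. Its percentile was 28.4 for the siSelT-1 mean and 78.5 for the siSelT-5 mean. Over 14 alternatives the adjusted p for both constructs missed the threshold in 5 and was highest, at 0.834, with centring and scaling. The misses included leaving out siSelT-1 replicate 1 (mean 0.31) or replicate 2 (mean 0.39).

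Txnrd1 is the cytosolic reductase that keeps thioredoxin reduced with electrons from NADPH. Its ratios (Entrez Gene 50493) were 0.17 and 0.17 with siSelT-1 and 0.18 and 0.86 with siSelT-5. Replicate 2 of siSelT-5 stood apart from the other 3 arrays, which lay close together. The gap of 0.68 between the siSelT-5 arrays was larger than that of 88.0% of genes. The mean was 0.35 ± 0.34 (SD, n = 4), with a standard error of 0.13 and an adjusted p of 0.0628. Neither construct passed alone as deposited, with adjusted p of 0.537 for siSelT-1 and 0.0519 for siSelT-5. Centred on shared probes, the mean was 0.080 (adjusted p 0.659). Centred on all values, it passed (0.39, adjusted p 0.0456), and so did siSelT-5 alone (0.73, adjusted p 0.0157). Over 14 alternatives Txnrd1 passed in 3, and its adjusted p was highest, at 0.682, with centring and scaling. It passed with array weights (adjusted p 0.0352), where 2567 of 4754 genes were called. Without siSelT-5 replicate 1, which leaves the siSelT-5 array that stood apart, the mean was 0.52. Without siSelT-5 replicate 2, the array that stood apart, the mean was 0.18.

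Txnrd3, a thioredoxin and glutathione reductase best known from testis, gave the smallest positive mean. Its ratios (Entrez Gene 232223) were 0.47 and 0.25 with siSelT-1 and 0.095 and 0.20 with siSelT-5. All were above 0, with both siSelT-1 arrays above both siSelT-5 arrays, the reverse of the order in Gpx1 and Gpx4. The mean of 0.25 ± 0.16 (SD, n = 4) passed narrowly with an adjusted p of 0.0469. It equalled the median of all genes, 0.25, and centring turned it to -0.014 with an adjusted p of 0.890. The adjusted p over 14 alternatives ran from 0.0190 to 0.890, and it missed in 9 of them. Among these were a single mean over the 4 arrays (adjusted p 0.169) and array weights (adjusted p 0.0606). Leaving out siSelT-1 replicate 1 (mean 0.20) or replicate 2 (mean 0.31) were others. No construct passed alone as deposited, with adjusted p of 0.0958 for siSelT-1 and 0.327 for siSelT-5. Centred on all values, siSelT-5 alone passed (0.36, adjusted p 0.0264), where 3181 of 4754 genes were called. With array weights siSelT-1 alone passed (adjusted p 0.0223), where 1920 were called.

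Msrb1 repairs oxidised methionine, acting on the R form of methionine sulfoxide. Averaged over its 2 probes, its ratios (Entrez Gene 27361) were 0.43 and 0.11 with siSelT-1 and 0.60 and 0.62 with siSelT-5. All were above 0, with both siSelT-5 arrays above both siSelT-1 arrays. Centred, this order did not hold, with 0.24 and 0.016 for siSelT-1 and 0.17 and 0.26 for siSelT-5. The mean was 0.44 ± 0.23 (SD, n = 4) with an adjusted p of 0.0100, and the centred mean was 0.17 with an adjusted p of 0.128. Over siSelT-5 alone the mean was 0.61 (adjusted p 0.0106), and over siSelT-1 alone 0.27 (adjusted p 0.190). Centred on shared probes, the siSelT-5 mean was 0.21 and missed (adjusted p 0.170). Across 14 alternatives the adjusted p for both constructs missed the threshold in 5 and was highest, at 0.136, with centring and scaling. Leaving out siSelT-1 replicate 1 (mean 0.36) or replicate 2 (mean 0.52) were among the misses.

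The 2 probes of Msrb1 differed with siSelT-1. The first read 0.79, 0.49, 0.74 and 0.62 on siSelT-1 replicates 1 and 2 and siSelT-5 replicates 1 and 2. The second read 0.071, -0.27, 0.45 and 0.61 in the same order. The first probe was thus high on every array, while the second was near or below 0 with siSelT-1 and high with siSelT-5. The first exceeded the second by 0.72 and 0.76 with siSelT-1, and by 0.28 and 0.015 with siSelT-5. Among the 751 genes with 2 probes, the median size of such a difference was 0.27 on each siSelT-1 array, and Msrb1 exceeded 88.7% and 93.6% of them there. In a fit of 6251 single probes, the first probe had a mean over both constructs of 0.66 (adjusted p 0.00315) and the second 0.22 (adjusted p 0.109). For siSelT-1 alone the first was 0.64 (adjusted p 0.0407) and the second -0.100 (adjusted p 0.649). A direction for Msrb1 with siSelT-1 therefore depends on the probe. With siSelT-5 both probes were higher as deposited, at 0.68 (adjusted p 0.00804) and 0.53 (adjusted p 0.0212). Single probes were not fitted after centring, where the siSelT-5 mean of the gene missed.

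**Figure D2:**
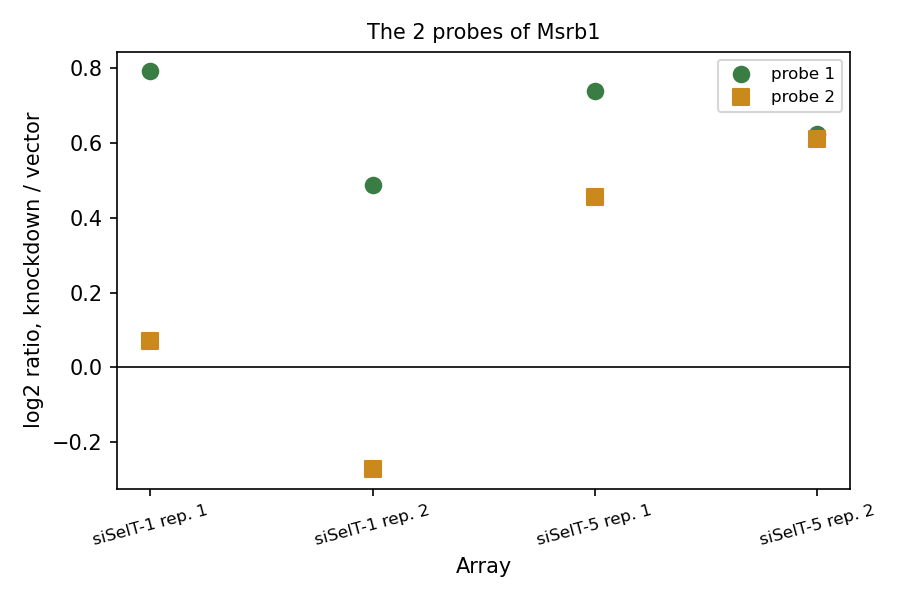
Log2 ratio of knockdown over vector (vertical axis) for both Msrb1 probes on each array (horizontal axis). The probes are 0.72 and 0.76 apart with siSelT-1, and 0.28 and 0.015 apart with siSelT-5.

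Selenop is made mostly by liver, and its protein carries many selenocysteines through the blood to tissues that take it up by lipoprotein receptors. Here its ratios (Entrez Gene 20363) were -0.61 and -0.68 with siSelT-1 and -0.12 and -0.31 with siSelT-5. All 4 arrays were below 0, and the siSelT-1 arrays were lower than the siSelT-5 arrays. The mean of -0.43 ± 0.26 (SD, n = 4), 1.35-fold lower than vector, had a standard error of 0.080 and an adjusted p of 0.00773. Centred, the mean was -0.70, with an adjusted p of 0.00450. It fell by 0.64 with siSelT-1 (adjusted p 0.0338), which missed the threshold in 4 of 13 alternatives. Among these were a block for the replicate number (adjusted p 0.0534) and a looser missing-value filter (adjusted p 0.0612). With siSelT-5 the mean was -0.21 as deposited (adjusted p 0.160) and -0.61 after centring on shared probes (adjusted p 0.0119). Centred on all values it was -0.0052 (adjusted p 0.968), so a fall with siSelT-5 depends on the median subtracted. Over 13 alternatives the adjusted p for siSelT-5 ran from 0.0119 to 0.968. Among all genes Selenop had a percentile of 2.71 and 2.52 with siSelT-1, and of 16.0 and 15.2 with siSelT-5. The mean missed the threshold without siSelT-1 replicate 1 (-0.45) and without siSelT-1 replicate 2 (-0.41), and over 14 alternatives the adjusted p ran from 0.00110 to 0.0898. Of the 8 fibroblast markers tested, 1 was called higher and 3 lower with siSelT-1, beside 10.3% and 3.37% of all genes. The higher one was Pdgfra (0.68), and the lower ones were Dcn (-0.86), Postn (-0.78) and Col3a1 (-0.72). With siSelT-5, 4 were higher and 1 lower, beside 47.6% and 6.29% of all genes. The higher ones were Postn (1.64), Pdgfra (1.09), Vim (0.82) and Thy1 (0.51), and the lower one was Fn1 (-0.87). Their part in the Selenop result was not tested. In cultures, fewer cells of a kind and less RNA per cell cannot be told apart.

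**Figure D3:**
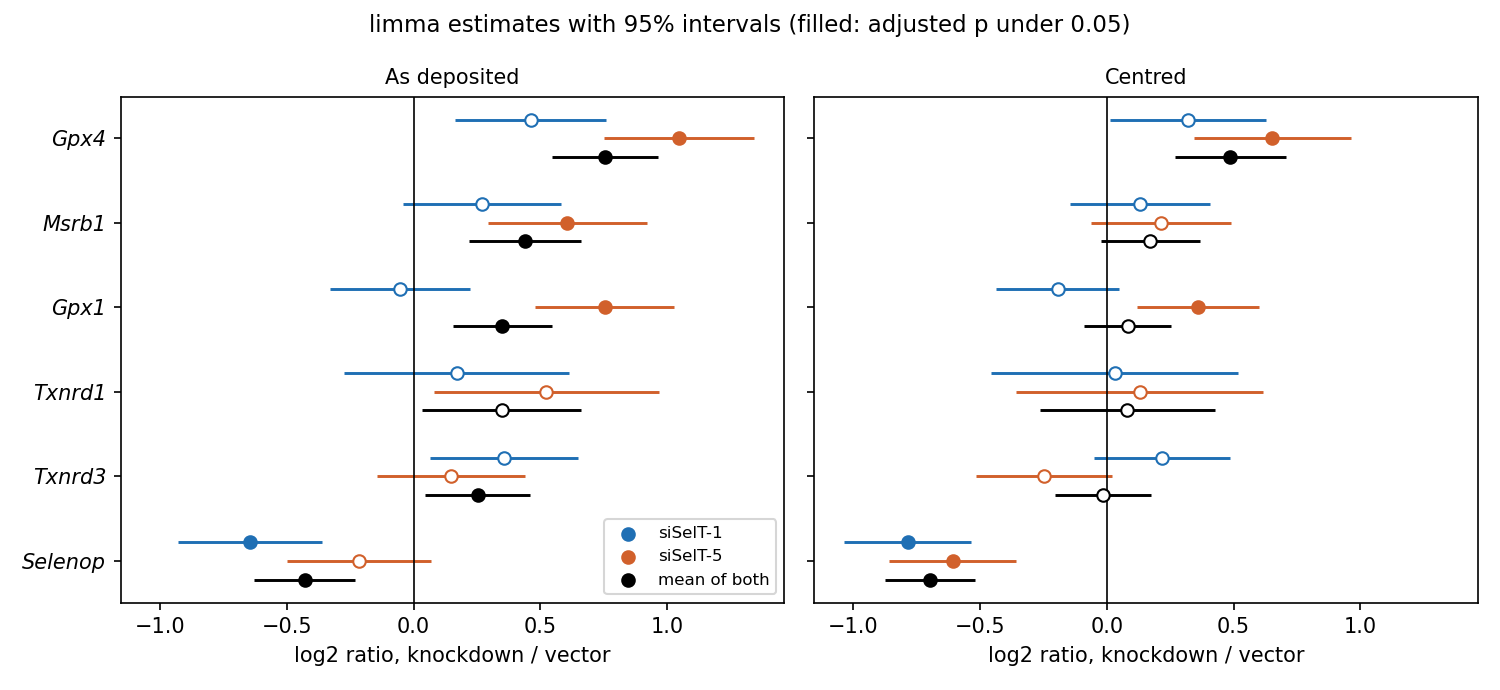
limma estimates of the log2 ratio (horizontal axis) with 95% intervals for siSelT-1, siSelT-5 and their mean in the 6 genes, as deposited on the left and centred on the right; filled points had an adjusted p under 0.05. Gpx4 and Selenop are filled for the mean of both constructs in both panels, while Gpx1 is filled for siSelT-5 in both.

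Constructs were then taken singly. With siSelT-1, 0 of 6 genes were called higher and Selenop lower, against 10.3% and 3.37% of all genes. At an unadjusted p under 0.05 the siSelT-1 contrast had 1653 of 4754 genes. With siSelT-5, Gpx4, Gpx1 and Msrb1 were called higher and none of the 6 lower, against 47.6% and 6.29%. After centring the siSelT-1 calls were unchanged at 0 higher and 1 lower (background 3.83% and 5.07%). The centred siSelT-5 calls were Gpx4 and Gpx1 higher and Selenop lower (background 19.2% and 20%). The test took 1 error per gene from both constructs. The siSelT-1 arrays correlated more closely (r = 0.84) than the siSelT-5 arrays (r = 0.66). With array weights, which were larger for siSelT-1, Gpx4 and Txnrd3 were called higher with siSelT-1, among 1920 genes called. The siSelT-5 calls then fell from 2563 to 2016 of all genes, with 3 of the 6 still higher. The gap in calls between the constructs therefore depends on the error assumed. The direct comparison, siSelT-1 minus siSelT-5, is free of a dye effect shared by all arrays. It called 0 of the 6 genes, and 0.0631% of all genes, as deposited and after centring on shared probes, although 1697 of 4754 genes had an unadjusted p under 0.05 as deposited and 1228 after that centring. With centring on all values it called 4 of the 6 genes and 2512 of the 4754, so calls in this comparison depend on which median is subtracted.

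The construct difference was greatest in size for Gpx1, with siSelT-1 lower by 0.81 (difference -0.81, 95% interval -1.20 to -0.42, adjusted p 0.0546). Over 13 alternatives its adjusted p ran from 0.0103 to 0.434. Both ends of that range came from fits with 1 array left out. There the lone array of a construct was assumed to vary like the others. Without siSelT-5 replicate 1 the difference was -0.79, and without siSelT-5 replicate 2 it was -0.83. With each array centred on all of its values it passed, as did 2512 of the 4754 genes. Differences for the others were -0.59 for Gpx4 (-1.005 to -0.17), -0.43 for Selenop (-0.83 to -0.030), -0.35 for Txnrd1 (-0.98 to 0.28) and -0.34 for Msrb1 (-0.78 to 0.11). Txnrd3 gave 0.21, with an interval of -0.20 to 0.62. The adjusted p of these 5 lay between 0.0758 and 0.394. The sizes moved with the centring. After centring on shared probes, Gpx1 differed by -0.55 (-0.90 to -0.21), Txnrd3 by 0.46 (0.086 to 0.84), and Gpx4, Selenop, Txnrd1 and Msrb1 by -0.33 to -0.083. After centring on all values, Gpx1 differed by -1.14 (adjusted p 0.0117), Gpx4 by -0.92 (0.0124), Selenop by -0.76 (0.0155) and Msrb1 by -0.67 (0.0196), all of which passed. On that scale Txnrd1 differed by -0.68 (adjusted p 0.0683), and Txnrd3 turned to -0.12 (adjusted p 0.496). Over 13 alternatives the adjusted p of the difference ran from 0.0120 to 0.708 for Gpx4, 0.0155 to 0.511 for Selenop, 0.0196 to 0.983 for Msrb1, 0.0136 to 0.953 for Txnrd1 and 0.129 to 0.839 for Txnrd3.

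**Figure D4:**
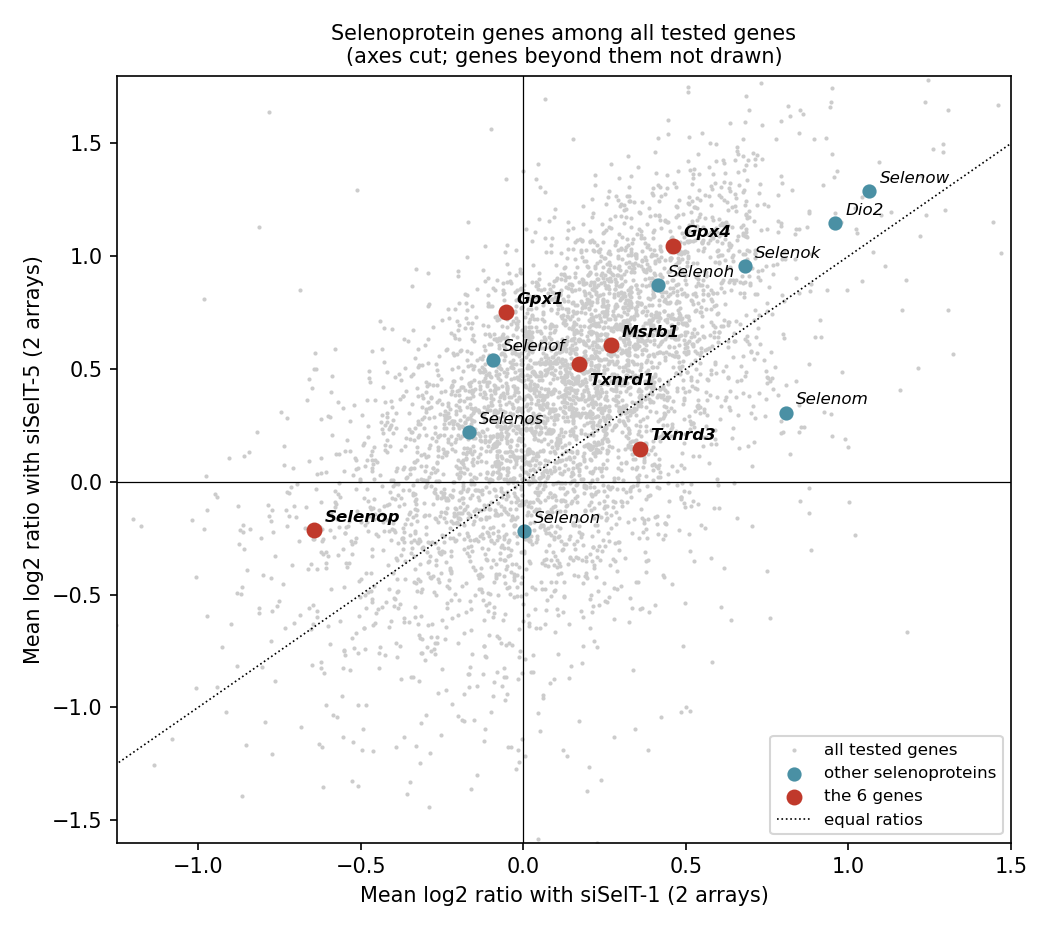
Mean log2 ratio with siSelT-1 (horizontal axis) against siSelT-5 (vertical axis), 2 arrays each, for all tested genes in grey, the 6 genes in red and other selenoproteins in blue, with a dotted line where both are equal. Txnrd3 lies below the line at 0.36 and 0.15, and Gpx1 lies above it at -0.054 and 0.75.

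The selenium-sensitive genes were set against the resistant genes within each array, where shifts of the whole array cancel. The mean of Gpx1, Selenop and Msrb1 was -0.052 and -0.23 with siSelT-1 and 0.42 and 0.35 with siSelT-5. The mean of Gpx4 and Txnrd1 was 0.31 and 0.32 with siSelT-1 and 0.55 and 1.02 with siSelT-5. Sensitive minus resistant was -0.36, -0.55, -0.13 and -0.67, below 0 on all 4 arrays, with a mean of -0.43 ± 0.24 (SD, n = 4). The construct means of this difference were alike, -0.46 for siSelT-1 and -0.40 for siSelT-5. No p-value is given, since the score was formed over chosen genes.

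The gap between the classes rested largely on Selenop and Gpx4. Without Selenop it was -0.085, -0.33, 0.14 and -0.35, no longer of a single sign, with a mean of -0.16 ± 0.23 (SD, n = 4). Without Gpx4 its mean was -0.23, and with Txnrd3 counted as resistant it was -0.33, with siSelT-5 replicate 1 just above 0 at 0.020. Within the sensitive class, Gpx1 minus Selenop was 0.78 ± 0.23 and Selenop minus Msrb1 was -0.87 ± 0.15, each with the same sign on 4 of 4 arrays. Within the resistant class, Gpx4 exceeded Txnrd1 by 0.41 ± 0.22, also on 4 of 4 arrays. The remaining pair within a class, Gpx1 minus Msrb1, was -0.089 ± 0.28, above 0 on 2 arrays and below on 2. Of the 4 pairs within a class, 3 thus differed by 0.41 to 0.87 in size and 1 by less than its spread, beside a gap of -0.43 between the classes. The peroxidase pair, Gpx1 minus Gpx4, which contrasts the textbook sensitive and resistant transcripts, was -0.43, -0.60, -0.14 and -0.45, with a mean of -0.40 ± 0.19. Gpx1 minus Txnrd1 was -0.14, -0.31, 0.59 and -0.13, with a mean of 0.0029 ± 0.40 and no single sign.

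**Figure D5:**
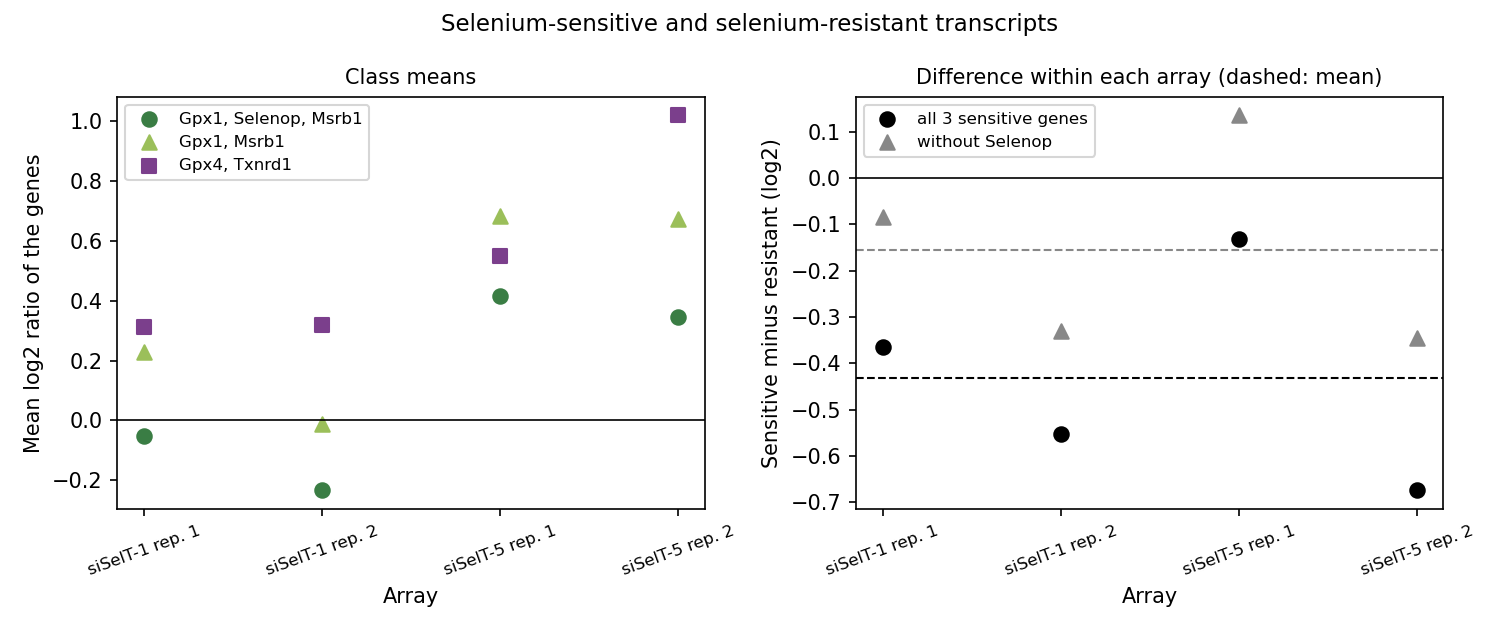
Left, mean log2 ratio (vertical axis) of the selenium-sensitive genes, of the same without Selenop, and of the resistant genes on each array (horizontal axis); right, sensitive minus resistant within each array, with dashed lines at the means of -0.43 and -0.16. With Selenop all 4 differences are below 0, and without it siSelT-5 replicate 1 is above 0 at 0.14.

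Ordered by mean ratio, the 6 genes ran Gpx4 (0.75), Msrb1 (0.44), Gpx1 (0.35), Txnrd1 (0.35), Txnrd3 (0.25) and Selenop (-0.43). Gpx4 exceeded Msrb1 by 0.32 ± 0.22, on 4 of 4 arrays. Neighbours in the middle did not keep their order: Msrb1 was above Gpx1 on 2 arrays of 4, Gpx1 above Txnrd1 on 1, and Txnrd1 above Txnrd3 on 2. At the lower end Selenop was below Txnrd3 by 0.21 to 1.08 on 4 of 4 arrays. These are ratios to vector and say nothing about which transcript was more abundant.

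Of the 14 selenoprotein genes tested, Gpx4 ranked 4th by mean ratio, Msrb1 7th, Gpx1 8th, Txnrd1 9th, Txnrd3 10th and Selenop 14th. Above Gpx4 stood Selenow (1.18 ± 0.22), Dio2 (1.05 ± 0.18) and Selenok (0.82 ± 0.18), each SD over 4 arrays. Selenow encodes a small thioredoxin-fold selenoprotein, and Selenoh (0.64 ± 0.35) a nucleolar one. Their mRNAs too are known as sensitive to selenium supply, which was not part of the grouping used here, and both ratios lay above the Txnrd1 mean. The rank of Gpx1 was 11th with siSelT-1 and 6th with siSelT-5, and Txnrd3 went from 7th to 12th. Selenop was 14th with siSelT-1 and 13th with siSelT-5, where Selenon (-0.22) was lower.

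For each of the 6 genes, the genes with the most similar 4 ratios were found by root mean square difference over the 4 arrays, a distance that does not change with centring. Gpx1 was nearest to Rab3gap1, Cdc37l1 and Dnajc2, at 0.045, 0.047 and 0.048, where the median over all genes was 0.455. Gpx4 was nearest to Cdkn2c, Tmbim4 and Aspscr1, at 0.040 to 0.041 against a median of 0.598. For Msrb1 the genes were Fkbp1a, Zfyve21 and Hmgn3, at 0.049 to 0.062. For Txnrd3 they were Ldb2, Xab2 and Slc12a9, at 0.048 to 0.065. Selenop had Nedd4, Irx2 and Phf1 at 0.044 to 0.064, against a median of 0.751. Txnrd1, with its divided siSelT-5 arrays, had Apip, Tmem167b and Slc25a4 at 0.075 to 0.091. None of these genes is a selenoprotein gene. The match is over 4 values in 4754 genes and is a description only.

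Genes around the 6 were counted from lists. Each count over both constructs is to be read against all genes, of which 45.7% were called higher and 8.04% lower as deposited, and 20.5% and 21.9% after centring on shared probes. Of 8 other selenoproteins measured out of 19 listed, 5 were called higher and 0 lower over both constructs (3 and 0 centred), with a median ratio of 0.60 where the median of all genes was 0.25. The 3 with the smallest p were Selenow, Dio2, which activates thyroid hormone, and Selenok, an endoplasmic reticulum membrane protein. Of 8 genes of selenocysteine incorporation and selenium metabolism out of 20, 3 were higher and 2 lower (2 and 3 centred), with a median of 0.17 (-0.098 centred). Sars, which loads serine on the selenocysteine tRNA, was higher (0.79 ± 0.55, adjusted p 0.00162), with 0.32 and 0.32 for siSelT-1 and 1.26 and 1.27 for siSelT-5. Secisbp2l, a relative of the hairpin-binding protein, was lower (-0.54 ± 0.43, adjusted p 0.00363), with -0.17 for siSelT-1 and -0.91 for siSelT-5. Eif4a3 can bind the hairpin of selenium-sensitive mRNAs and block insertion, and is also part of the exon junction complex. It was higher (0.50 ± 0.46, adjusted p 0.00489), with 0.10 for siSelT-1 and 0.89 for siSelT-5. Chosen after their values were seen, the remaining calls were Rpl30 higher (0.46 ± 0.46) and Trit1 lower (-0.51 ± 0.23), a tRNA-modifying enzyme. Rpl30 was 0.064 with siSelT-1 and 0.85 with siSelT-5, and it missed after centring (adjusted p 0.0966).

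Nonsense-mediated decay, through which some selenoprotein mRNAs are lost in part when selenium is scarce, had 8 measured genes of 20. Of these 3 were higher and 0 lower, with a median of 0.13, below that of all genes. The calls were Eif4a3, Pnrc2 (0.39 ± 0.59) and Rbm8a (0.54 ± 0.33). With siSelT-1 the means were 0.10, -0.12 and 0.70 in that order, and with siSelT-5 they were 0.89, 0.89 and 0.38. Upf1, the central helicase, singled out after its value was seen, was 0.13 ± 0.22 and did not pass (adjusted p 0.215). After centring 1 gene of this list, Eif4a3, was higher and Upf2, Smg5 and Ncbp2 were lower, and the median was -0.14.

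The cofactor supply for the peroxidases was read from glutathione genes and peroxidases without selenocysteine, of which 13 of 25 were measured. Of these 8 were called higher and 0 lower (6 and 3 centred), beside 45.7% and 8.04% of all genes (20.5% and 21.9% centred), with a median of 0.59. Prdx1 (0.93 ± 0.31) and Prdx4 (0.83 ± 0.17), thiol peroxidases, and the glutaredoxin Glrx3 (0.74 ± 0.56) had the smallest p. Gpx8, a peroxidase with cysteine in place of selenocysteine, was 0.15 ± 0.27 and did not pass (adjusted p 0.234). Among 15 of 28 thioredoxin substrates, partners and NADPH-supplying enzymes, the surroundings in which Txnrd1 acts, 9 were higher and 1 lower (7 and 2 centred), beside the same shares of all genes, with a median of 0.40. Txndc12 (0.86 ± 0.49), Txndc9 (0.97 ± 0.19) and Txndc5 (0.67 ± 0.42) led this list. Msrb3, the cysteine relative of Msrb1, was 0.57 ± 0.50 with an adjusted p of 0.00422; it and Gpx8 were singled out after their values were seen.

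Lipid peroxidation and ferroptosis genes, the setting in which Gpx4 acts, had 12 of 24 measured. Of these 10 were called higher and 1 lower (5 and 1 centred), beside 45.7% and 8.04% of all genes (20.5% and 21.9% centred), with a median of 0.43. The smallest p belonged to Hmox1, the haem-degrading enzyme (1.15 ± 0.16), Aifm2, which guards membranes in parallel to Gpx4 (1.22 ± 0.49), and the desaturase Scd2 (1.02 ± 0.42). The lower gene was Ncoa4, the ferritin receptor of autophagy (-0.39 ± 0.20), named after its value was seen. For Selenop uptake and regulation, 4 of 14 were measured, with 1 higher, 1 lower and a median of -0.085. Foxo3, a forkhead factor of the family that drives Selenop transcription in liver, was lower (-0.54 ± 0.25, adjusted p 0.0115). Its relative Foxo1 was higher (0.32 ± 0.24, adjusted p 0.0184) but not after centring (0.054). The receptor Lrp1, also singled out later, was 0.017 ± 0.25 (adjusted p 0.870). Igf1r was -0.19 ± 0.13 (adjusted p 0.129). After centring 0 genes of this list were higher and 3 lower, namely Foxo3, Igf1r and Lrp1.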

How the data were processed

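The authors' deposited values were log ratios of 2 channels per array, here read as log2; base, background correction, normalization and filter are not given in the sources used here. Per the labels, RNA was extracted with Trizol, copied with oligo-dT primers and dye-coupled. Of 22534 probes, 18129 had 1 gene name, 140 had several, and 4265 were unnamed. Entrez identifiers matched 18041 probes to RefSeq and changed 0 symbols. A gene was the mean of its singly named probes with a value on all 4 arrays (7038 probes of all kinds), which gave 4754 genes, 3796 with 1 probe.

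The fit used lmFit and eBayes of limma 3.58.1 (R 4.3.3, statmod 1.5.0) with a mean for each construct, which left 2 residual degrees of freedom, and two-sided tests with Benjamini-Hochberg adjustment over all genes. Tested against 0 were the average of the construct means, each construct mean alone, and their difference (siSelT-1 minus siSelT-5). The first 3 of these share their arrays and are not independent. The error of a gene came from gaps between arrays of the same construct, pooled over both constructs. A p for the average over both constructs therefore leaves out how far the constructs differ. Knockdown RNA had the same dye on every array, so a dye effect of a gene does not cancel against vector. The labels do not say if the same vector RNA was used on several arrays, so how far the tests include the spread of vector cultures is not known. The number of arrays limits precision. The pipeline was tested on simulated data.

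Named genes were the 6 genes, the 3 nearest genes to each by root mean square difference, and up to 3 genes per list with the smallest unadjusted p; others are marked in the text. The members and lists were chosen with earlier results of these data known. Alternatives were centring, scaling, a looser missing-value filter, single or unnamed probes, a robust eBayes fit, weights per array, a block for the replicate number, a single mean and each array left out.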

Additional observations from a re-analysis of the deposited data

How the results depend on the processing

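For both constructs, 5 of the 6 genes were called, beside 2554 of all 4754 genes. With centring on all values 6 were called, beside 2717. Centring on shared probes left 2 (beside 2015 of all genes), centring with scaling 2 (2228) and a single mean over the 4 arrays 3 (1615). Single probes gave 3. Leaving out 1 array moved the count both down and up. Without siSelT-1 replicate 1 limma called 0 of 4754 genes, with 1846 at an unadjusted p under 0.05. In such fits the lone array of a construct was assumed to vary like the others. For siSelT-1, 1 gene was called, beside 650 of all 4754. Centring with scaling gave 2 (beside 1588), a value on 1 array of each group 0 (67 of 6024) and array weights 3 (1920). Leaving out 1 array moved this count down or up as well. For siSelT-5, 3 were called beside 2563 of all genes, and 5 beside 3181 with centring on all values. For siSelT-1 minus siSelT-5, 0 were called, and 4 with centring on all values (2512 of all genes in place of 3). Leaving out 1 siSelT-5 array raised that count too. Centring on shared probes turned Txnrd3 to -0.014, and leaving out Selenop moved the class gap from -0.43 to -0.16. The cause of these changes was not tested.

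With the replicate number as a replicate block, siSelT-1 had 0 of the 6 genes called, and 35 of all genes in place of 650. The block also left Txnrd3 for both constructs short of the threshold (adjusted p 0.0657, range over its alternatives 0.0190 to 0.890). Same-numbered arrays deviated together with r = 0.076, and only 2 numbers exist, so the numbers were not taken as pairs. A log10 reading would change sizes and no test, and it was not refitted. Low signal could not be judged, because the table holds ratios only.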
